A study of Mus musculus with 6 samples.

Results

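The transcripts described here encode 10 lymphocyte transcription factors and partners of the RUNX, ETS, Ikaros and BCL11B groups: Runx1, Runx2, Runx3, Cbfb, Ets1, Ets2, Ikzf1, Ikzf2, Ikzf3 and Bcl11b. They were taken by gene symbol from the 25075 gene symbols of a table of raw counts, and all 10 were found. The libraries came from group 3 innate lymphoid cells (ILC3s), gut lymphocytes that secrete IL-22 and IL-17, of mice on a B6 background. The labelled Batf-deficient group (n = 3) carried floxed Batf alleles and PLZF-Cre, and the labelled control group (n = 3) carried the same floxed alleles without Cre. Batf encodes an AP-1 factor, and PLZF is a factor of innate lymphocyte precursors, so a Cre under it acts early and also in cells outside the ILC3 lineage. Each sample held 2000 cells sorted from the small intestine as lineage-negative, CD90.2-positive and KLRG1-negative, and 2 ng of RNA went into Smart-seq2, a full-length cDNA method. The age and sex of the mice were not given in the labels used here.

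RUNX proteins bind DNA through the Runt domain as heterodimers with CBFβ, the product of Cbfb, which does not touch DNA itself but raises binding affinity. ETS factors bind a GGAA core and often pair with RUNX proteins on lymphocyte enhancers. Ikaros (Ikzf1), Helios (Ikzf2) and Aiolos (Ikzf3) are zinc finger proteins that dimerise with each other and recruit the NuRD chromatin remodelling complex. BCL11B is a zinc finger factor of T cell commitment that is also needed by ILC2s. In mice, RUNX3 is known to be required for ILC3s, and Ikaros to restrain the aryl hydrocarbon receptor in these cells.

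Of the upstream sequences at hand, those shown are the ones that held a RUNX motif, since the factors can act on their own genes. RefSeq windows (GRCm38.p6, the mm10 build) were found for 7 of the 10 genes, as 10 windows, and the 250 bases upstream of each start were searched on both strands. The motifs were TGTGGT or TGCGGT for RUNX, CGGAAG for ETS, TGGGAA for Ikaros and TGANTCA for AP-1, and no match overlapped another. RUNX motifs lay in 2 of the 10 windows, those of Runx2 and the distal start of Runx3, and in neither window of Runx1 nor the second window of Runx3, while 18.6% of all 32851 windows held one. The Ikaros motif lay in 1 window, that of distal Runx3 (21.6% of all windows), and no member window held the ETS or AP-1 letters (13.6% and 6.75% of all). These matches are letters in a window, not measured binding sites. Capitals mark the matches, and ACCACA is TGTGGT read on the other strand. The Runx3 window (chr4:135120395-135120644, plus strand) lies before the distal start, and its RUNX matches begin at -134 and -126 and its Ikaros match at -154 relative to that start. The Runx2 site (chr17:44814690-44814719, minus strand) begins its match at -80. In the gene annotation the Runx2 window overlaps exons of Runx2 itself, and the distal Runx3 window overlaps exons of Gm16225.
Runx3 distal: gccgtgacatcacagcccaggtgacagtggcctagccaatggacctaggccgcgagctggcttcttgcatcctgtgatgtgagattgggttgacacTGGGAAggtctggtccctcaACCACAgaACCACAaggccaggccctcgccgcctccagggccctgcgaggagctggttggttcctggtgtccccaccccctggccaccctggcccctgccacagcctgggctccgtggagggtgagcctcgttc
Runx2: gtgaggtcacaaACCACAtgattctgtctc

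Facts of the libraries that touch every value below come first. Total counts were 8228513 to 13615895 in the labelled Batf-deficient and 9080012 to 17334207 in the labelled control libraries. Batf itself was at 38.3, 41.3 and 41.3 CPM across the labelled Batf-deficient libraries, against 15.2, 15.3 and 18.95 CPM in the labelled control libraries, so the target gene went against the label. CPM are counts scaled to a common library total after correction by TMM, a scaling for composition. Counts were also scaled on a panel of 15 genes of ILCs and T cells, among them Lck, Thy1 and Cd247. Batf was then lower in the labelled Batf-deficient libraries (-1.10 on the log2 scale, edgeR adjusted p = 3.99e-05). With that scaling 86.4% of all genes tested were called lower. The median log2 fold change of all genes tested was then -2.38, so Batf fell less than the median gene. The 10 acinar (pancreatic) markers took at most 0.000178% of counts in the labelled Batf-deficient libraries, where Ptf1a had none, and 4.74% to 4.99% in the labelled control libraries. The 14 epithelial markers took 0.0280% to 0.0330% against 1.29% to 1.36%, and the 9 plasma cell markers 0.101% to 0.109% against 1.01% to 1.03%. Among the latter, Igha averaged 468 CPM in the labelled Batf-deficient and 6828 CPM in the labelled control group. With TMM factors 5 of the 9 were lower and 3 higher (34.1% and 30.2% of all genes tested). The 12 ILC3 markers took 0.971% to 1.03% against 0.170% to 0.196% and included Kit and Id2 in every library, while the 10 T cell markers, which a lineage-negative gate should limit, took 0.205% to 0.219% against 0.0375% to 0.0397%. The long noncoding RNA Xist, a mark of female cells, averaged 230 ± 50.2 CPM in the labelled Batf-deficient group and 0.902 ± 0.465 CPM in the labelled control group (SD, n = 3 each), so sex and genotype label cannot be told apart. In such bulk samples fewer cells of a type and less RNA per cell cannot be told apart either.

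With TMM factors, transcripts of 9 of the 10 factors were more abundant in the labelled Batf-deficient libraries and that of Ets2 was less abundant, and all 10 passed the quasi-likelihood test of edgeR with an adjusted p under 0.05. Over the 15261 genes tested, 30.2% were called higher and 34.1% lower, 64.4% in all. The median log2 fold change was 1.64 for the 10 genes and 0.02 for all genes tested. The libraries of each group did not overlap for any of the 10 genes, as for 71.2% of all genes tested. Scaling on the ILC and T cell panel shifted the median of all genes by -2.39 and turned the direction of 8 of the 9 higher genes, so that only Ikzf3 was called higher, 6 were called lower, and Runx1, Runx2 and Ets1 were negative without passing the test. Under that scaling 2.06% of all genes were called higher and 86.4% lower, 88.5% in all. A panel of 12 pan-leukocyte genes also left 1 member higher and 6 lower (2.32% and 84.5% of all genes, 86.8% in all). With library totals 8 members were higher and 1 was lower (20% and 42.5% of all genes, 62.5% in all). A change of scaling moves every gene by about the same amount, so the order of the members is kept by construction, with Ikzf3 and Ets1 at the top and Bcl11b, Cbfb and Ets2 at the bottom.

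**Figure D1:**
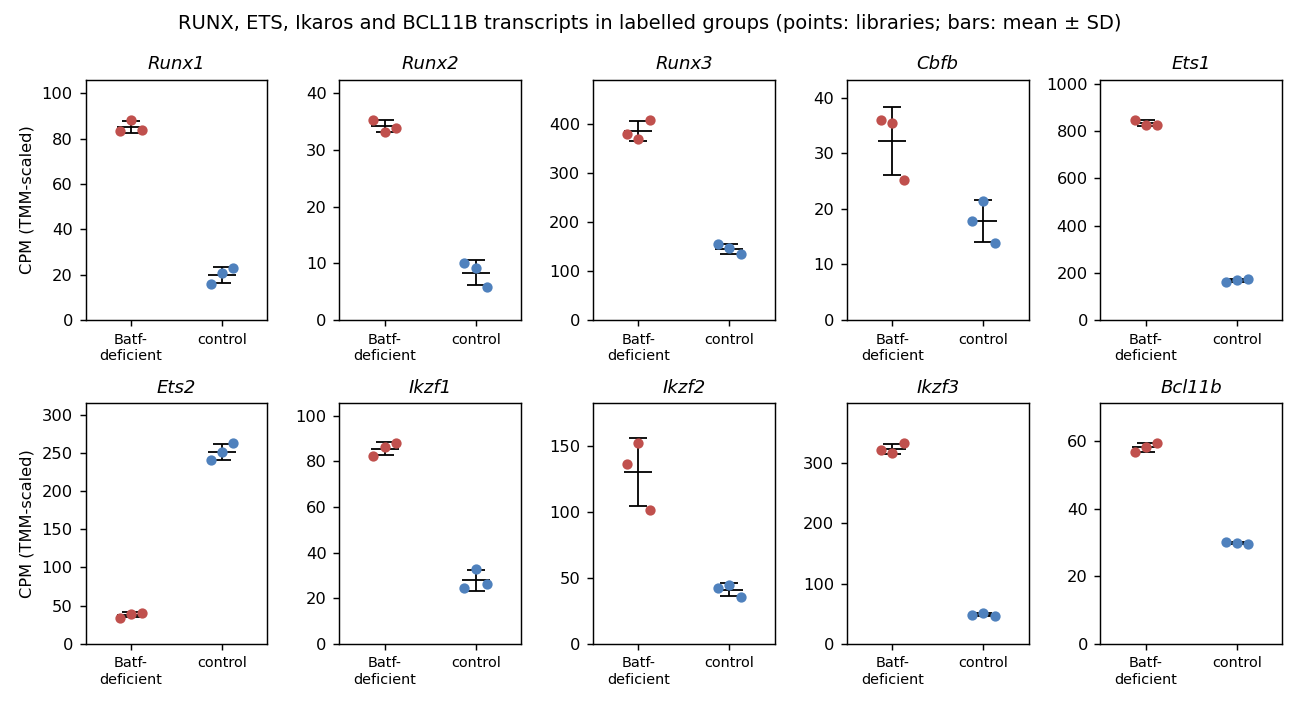
TMM-scaled CPM of each of the 10 genes in the 3 labelled Batf-deficient and 3 labelled control libraries, with points for libraries and bars for mean ± SD. The groups do not overlap in any panel, and Ets2 is the only gene with the lower values in the labelled Batf-deficient libraries.

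The 3 RUNX genes came first among the roles, as the DNA-binding subunits of the core binding factor. Runx3, which silences Cd4 in CD8 T cells and is needed by ILC3s, had 379, 369.7 and 409 CPM across the labelled Batf-deficient libraries, against 154, 146 and 134.5 CPM in the labelled control libraries. It was 2.66-fold higher with TMM factors (log2 fold change 1.41, SE 0.10, edgeR adjusted p = 1.01e-07), while panel scaling turned this to -0.98 (SE 0.11, edgeR adjusted p = 1.38e-06). All 3 labelled Batf-deficient libraries stood above the labelled control libraries in CPM and below them once expressed per panel gene, at 168, 158 and 179.7 against 362, 343 and 294 panel-scaled CPM.

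Runx1, which establishes blood stem cells and acts in early lymphocytes, had 83.3, 88.4 and 84.0 CPM across the labelled Batf-deficient libraries, against 16.0, 20.95 and 22.9 CPM in the labelled control libraries. Its log2 fold change was 2.09 (SE 0.15, edgeR adjusted p = 1.30e-07), and -0.30 with panel scaling (SE 0.16, edgeR adjusted p = 0.0819). Runx2, known best as the master factor of bone formation, was the least abundant of the 10 per length of exon, with 35.3, 33.2 and 33.97 CPM in the labelled Batf-deficient and 10.1, 9.16 and 5.87 CPM in the labelled control libraries. With TMM factors it was higher by 2.04 on the log2 scale (SE 0.22, edgeR adjusted p = 4.89e-06), and with panel scaling the value was -0.36 (SE 0.26, edgeR adjusted p = 0.193). The widest spread among the labelled control libraries, relative to the mean, was thus in Runx2, at 8.37 ± 2.22 CPM (SD, n = 3). Exons of Runx1 and Runx2 overlap those of the antisense genes Gm26626 and Runx2os1 over 106 and 519 bases, and Ikzf2 overlaps Gm29114 over 144 bases, so some reads could belong to either gene if counting ignored strand.

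Cbfb, the shared partner, had the smallest fold change among the higher genes. It had 36.0, 35.5 and 25.1 CPM across the labelled Batf-deficient libraries, against 17.8, 21.5 and 13.9 CPM in the labelled control libraries. The third labelled Batf-deficient library was lower than the other two and close to the highest labelled control library. The log2 fold change was 0.86 (SE 0.21, edgeR adjusted p = 0.00342). The call did not hold where library totals replaced TMM factors (0.47, edgeR adjusted p = 0.0618), and panel scaling turned it to -1.54 (SE 0.23, edgeR adjusted p = 2.47e-05).

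The ETS pair split. Ets1, a factor of T, NK and innate lymphoid cells, had 849, 826 and 826.5 CPM across the labelled Batf-deficient libraries, against 160.3, 169.8 and 173 CPM in the labelled control libraries. This was a 4.97-fold difference with TMM factors (log2 fold change 2.31, SE 0.09, edgeR adjusted p = 5.37e-10), and with panel scaling it was -0.08 (SE 0.09, edgeR adjusted p = 0.389). In panel-scaled CPM the labelled Batf-deficient libraries held 375, 352 and 363, just below the 376, 399 and 379 of the labelled control libraries. Ets1 was thus the member whose change came closest to that of the ILC and T cell panel.

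Ets2, a close relative of Ets1 that responds to Ras and MAP kinase signals in many cell types, had 34.1, 38.4 and 40.6 CPM across the labelled Batf-deficient libraries, against 241, 250.5 and 262 CPM in the labelled control libraries. It fell by 2.73 on the log2 scale with TMM factors (SE 0.11, edgeR adjusted p = 8.75e-10) and by 5.13 with panel scaling (SE 0.12, edgeR adjusted p = 2.77e-13), where the inverse fold was 34.9. Its direction was the same under every scaling, filter, test and left-out library tried. Beside it, the epithelial keratin Krt8 averaged 143 ± 8.95 CPM across the labelled Batf-deficient libraries and 3933 ± 190.3 CPM in the labelled control libraries, and Epcam, the epithelial adhesion gene, 33.96 ± 2.00 and 1031 ± 54.8 CPM (SD, n = 3 each). The part of the epithelial and acinar RNA in the level of Ets2 was not tested.

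The Ikaros family genes were all higher with TMM factors, Ikzf3 by the most. Ikzf3, encoding Aiolos, had 323, 317 and 333 CPM across the labelled Batf-deficient libraries, against 47.99, 50.8 and 46.4 CPM in the labelled control libraries. It was 6.70-fold higher (log2 fold change 2.74, SE 0.10, edgeR adjusted p = 3.16e-10) and stayed higher with panel scaling (0.35, SE 0.11, edgeR adjusted p = 0.00980). Per panel gene, the labelled Batf-deficient libraries had 143, 135 and 146 panel-scaled CPM, all above the 113, 119.5 and 101 of the labelled control libraries. Aiolos is also abundant in B cells, whose 10 markers took 0.0136% to 0.0167% of counts in the labelled Batf-deficient libraries, against 0.0139% to 0.0182% in the labelled control libraries. With TMM factors 8 of these markers were lower and Blk, also expressed by γδ T cells, was higher. Blk had a log2 fold change of 3.05 (edgeR adjusted p = 2.10e-09). The 10 T cell markers were all higher with TMM factors. With panel scaling 1 B cell marker was higher and 9 lower, and 6 T cell markers were higher and 2 lower. Over all genes tested 30.2% were higher and 34.1% lower with TMM factors, and 2.06% and 86.4% with panel scaling. The part of B and T cell RNA in the level of Ikzf3 was not tested.

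Ikzf1, encoding Ikaros, had 82.3, 86.2 and 87.8 CPM across the labelled Batf-deficient libraries, against 24.3, 32.9 and 26.2 CPM in the labelled control libraries. The log2 fold change was 1.62 (SE 0.14, edgeR adjusted p = 6.80e-07), and panel scaling turned it to -0.78 (SE 0.15, edgeR adjusted p = 0.000331). Ikzf2, encoding Helios, had 136.5, 152 and 102 CPM across the labelled Batf-deficient libraries, against 42.3, 44.9 and 35.5 CPM in the labelled control libraries. Here the third labelled Batf-deficient library was again the lowest of its group, and still above every labelled control library. On the log2 scale Ikzf2 differed by 1.67 (SE 0.16, edgeR adjusted p = 1.81e-06), and -0.73 with panel scaling (SE 0.17, edgeR adjusted p = 0.000975).

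Bcl11b spread little between libraries. Its level was 56.8, 58.4 and 59.3 CPM across the labelled Batf-deficient libraries, against 30.3, 29.9 and 29.4 CPM in the labelled control libraries. It was 1.95-fold higher with TMM factors (log2 fold change 0.96, SE 0.12, edgeR adjusted p = 2.00e-05), and panel scaling turned this to -1.43 (SE 0.14, edgeR adjusted p = 3.34e-07). In panel-scaled CPM the labelled Batf-deficient libraries held 25.1, 24.9 and 26.1, below the 71.0, 70.3 and 64.4 of the labelled control libraries. Bcl11b therefore trailed the ILC and T cell panel, as did Ets2, Cbfb, Runx3, Ikzf1 and Ikzf2.

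**Figure D2:**
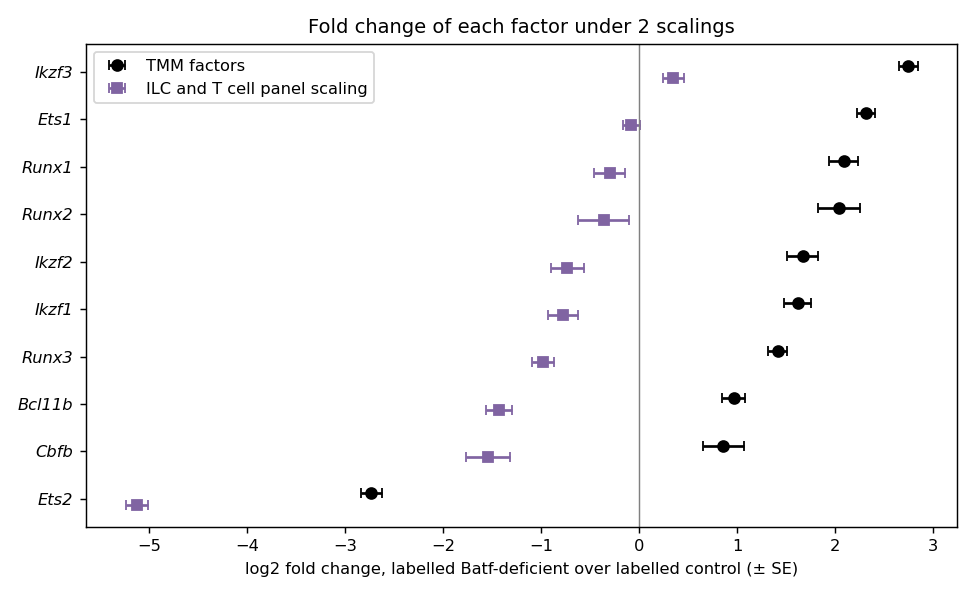
Log2 fold change (± SE) of each gene, labelled Batf-deficient over labelled control, with TMM factors (circles) and with scaling on the ILC and T cell panel (squares). Ikzf3 lies right of 0 and Ets2 left of 0 under both scalings, while the other 8 genes lie right of 0 with TMM factors and left of it with the panel.

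Levels of different genes were compared as CPM per kilobase of exon, from the union of each gene's exons in GENCODE M21. In the labelled Batf-deficient libraries Ets1 led with 98.4 ± 1.53, followed by Runx3 with 77.1 ± 4.06 and Ikzf3 with 37.0 ± 0.930 CPM per kb (SD, n = 3). Ikzf1 came next at 14.8 ± 0.490 CPM per kb, then Ikzf2 at 11.2, Cbfb at 9.26, Bcl11b at 7.17, Runx1 at 7.09, Ets2 at 6.52 and Runx2 at 3.87. The neighbours Ikzf2 and Cbfb, Cbfb and Bcl11b, Bcl11b and Runx1, and Runx1 and Ets2 overlapped between libraries. In the labelled control libraries Ets2 led with 43.5 ± 1.84, before Runx3 with 29.0 ± 1.98 and Ets1 with 19.8 ± 0.791 CPM per kb (SD, n = 3). The remaining labelled control levels were 5.53 for Ikzf3, 5.10 for Cbfb, 4.81 for Ikzf1, 3.68 for Bcl11b, 3.52 for Ikzf2, 1.66 for Runx1 and 0.947 CPM per kb for Runx2. There the neighbours Ikzf3 and Cbfb, Cbfb and Ikzf1, and Bcl11b and Ikzf2 overlapped. By mean level Ets2 ranked ninth in the labelled Batf-deficient libraries, with no gap to the eighth, and first in the labelled control libraries. With the longest coding transcript as the length, the first 3 genes were the same in each group and Ets2 ranked eighth in the labelled Batf-deficient libraries.

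**Figure D3:**
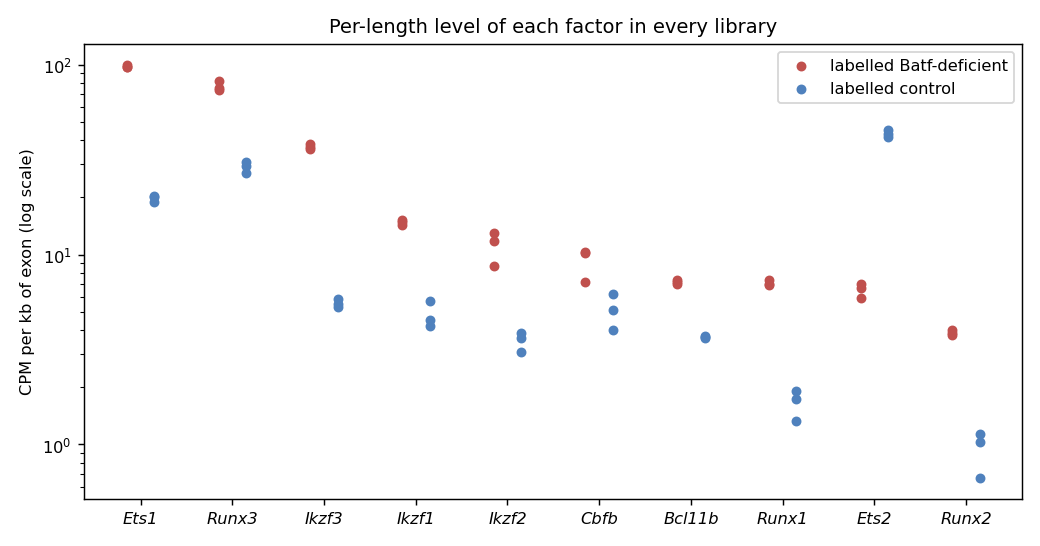
CPM per kilobase of exon (log scale) of each gene in every library, ordered by the mean of the labelled Batf-deficient libraries. Ets1 and Runx3 are the highest in the labelled Batf-deficient libraries and Ets2 is the highest in the labelled control libraries.

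Shares inside a family do not depend on the scaling of libraries, and were taken from per-length levels. With 3 libraries against 3, an exact permutation test cannot give a two-sided p below 0.10. All 8 measures compared reached it (exact p = 0.10 each, 0.10 after Benjamini-Hochberg adjustment). This test can therefore place none of these differences under 0.05. None of the 8 overlapped between groups, and in CPM 71.2% of all genes tested did not overlap either. Shares of a family are parts of the same sum, and Cbfb is set over the RUNX sum, so the 8 measures are not independent.

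Runx3 made up most of the RUNX level in every library. Its share was 87.4%, 86.9% and 88.3% in the labelled Batf-deficient libraries, against 92.6%, 91.3% and 91.3% in the labelled control libraries. Runx1 took 8.06% ± 0.550 and Runx2 4.40% ± 0.230 in the labelled Batf-deficient libraries, against 5.31% ± 1.24 and 2.98% ± 0.631 in the labelled control libraries (SD, n = 3 each). On average the mix held more Runx1 and Runx2 and less Runx3 in the labelled Batf-deficient libraries. The size of these shares rests on the length used. With the longest coding transcript, Runx3 averaged 83.3% in the labelled Batf-deficient and 88.8% in the labelled control libraries. As shares of counts, it averaged 76.3% and 83.6%. Cbfb stood at 0.119, 0.120 and 0.0780 of the summed RUNX level in the labelled Batf-deficient libraries, against 0.154, 0.193 and 0.136 in the labelled control libraries, so that the partner's level was the smaller part of the RUNX level in the labelled Batf-deficient libraries.

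Inside the ETS pair the order turned over. Ets1 made up 94.4%, 93.6% and 93.3% of the pair in the labelled Batf-deficient libraries, against 31.2%, 31.6% and 31.1% in the labelled control libraries. The ratio of Ets1 to Ets2 per length was 15.2 ± 1.61 in the labelled Batf-deficient and 0.455 ± 0.00625 in the labelled control libraries (SD, n = 3 each). It was steady within each group and crossed 1 between them. The labelled control libraries also held larger shares of epithelial and acinar marker counts, and the part of that RNA in this ratio was not tested.

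Aiolos led the Ikaros family in every library and by more in the labelled Batf-deficient libraries. Ikzf3 took 58.7%, 56.4% and 61.4% of the family's level there, against 41.1%, 37.8% and 41.1% in the labelled control libraries. Ikzf1 took 22.7%, 23.3% and 24.5% against 31.6%, 37.0% and 35.2%. Ikzf2 took 18.7%, 20.4% and 14.1% against 27.3%, 25.2% and 23.7%. The ratio of Ikzf3 to Ikzf1 was 2.51 ± 0.0821 in the labelled Batf-deficient and 1.16 ± 0.141 in the labelled control libraries (SD, n = 3 each). The size of these shares rests on the length used: with the longest coding transcript, Ikzf3 averaged 74.4% in the labelled Batf-deficient and 57.6% in the labelled control libraries.

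**Figure D4:**
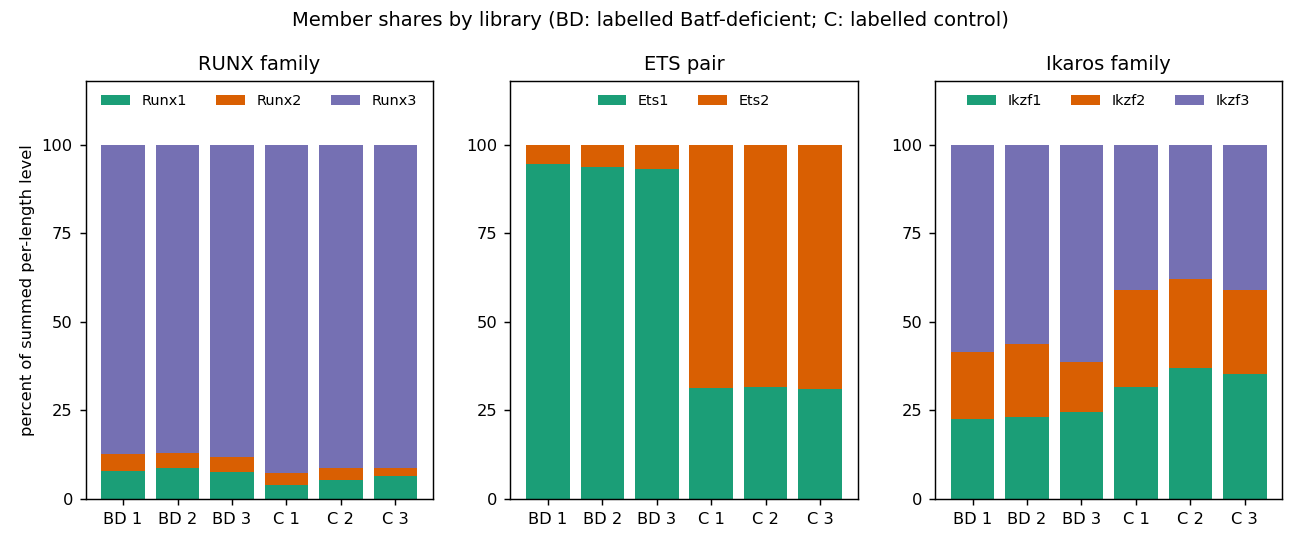
Percent of the summed per-length level of each family taken by each gene, as stacked bars for the 3 labelled Batf-deficient (BD) and 3 labelled control (C) libraries. Runx3 holds at least 86.9% of the RUNX level in each bar, Ets1 is the larger part of its pair in BD bars and the smaller part in C bars, and Ikzf3 takes a larger part in the labelled Batf-deficient libraries.

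Other ETS family genes were found in both directions with TMM factors. Of 24, 21 were tested, and with TMM factors 11 rose and 6 fell in the labelled Batf-deficient libraries (median log2 fold change 0.35; panel-scaled median -2.04, where none was higher and 20 were lower). Among all genes tested the shares were 30.2% higher and 34.1% lower, and 2.06% and 86.4% with the panel, so the panel-scaled counts stand near the background. Fli1, a factor of blood and endothelial cells, and Elf4, which restrains T cell proliferation, were higher at 1.81 and 1.47 with TMM factors and negative at -0.58 and -0.92 with panel scaling. Elf3 and Ehf, ETS factors of epithelium, fell by 4.24 and 3.67. Elf3 had 23.9 ± 3.45 CPM in the labelled Batf-deficient and 454 ± 18.4 CPM in the labelled control libraries (SD, n = 3 each). The edgeR adjusted p of these 4 genes was 1.64e-06 or lower. Of the 3 remaining relatives of Ikaros and BCL11B, Ikzf4 and Ikzf5 did not pass, and Bcl11a, a B cell and dendritic cell factor named after its value was seen, was lower at -3.52 (edgeR adjusted p = 4.41e-05).

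**Figure D5:**
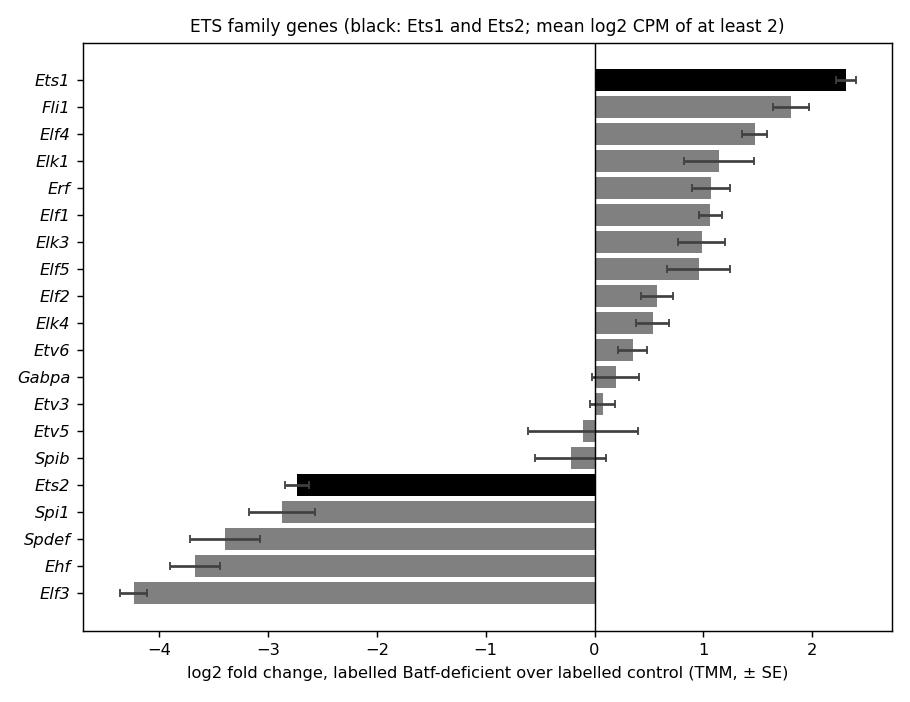
Log2 fold change (± SE, TMM factors) of 20 ETS family genes whose log2 CPM averaged 2 or more, labelled Batf-deficient over labelled control, with Ets1 and Ets2 in black. Ets1 has the longest bar to the right (2.31), and the 7 bars on the left are Ets2, Spi1, Spdef, Ehf and Elf3, with short ones for Spib (-0.22) and Etv5 (-0.10).

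Counts of partner genes are set against the same all-gene shares. Of 14 RUNX corepressors and cofactors tested, 6 rose and 6 fell (median 0.55; panel-scaled median -1.85, where 13 were lower, near the 86.4% of all genes). The acetyltransferase genes Kat6a and Ep300 were higher at 2.23 and 1.85, and the kinase gene Hipk1 at 0.97, all 3 turning negative with panel scaling (-0.16, -0.54 and -1.43), while the kinase gene Hipk2 fell by 2.60. Of 13 subunits of NuRD, the complex that Ikaros and BCL11B recruit, 6 rose and 2 fell (median 0.23; panel-scaled median -2.16, where all 13 were lower, again near the 86.4% of all genes). The metastasis-associated subunits Mta2 and Mta3 and the histone-binding subunit Rbbp4 had 1.24, 0.91 and 0.82, each negative with panel scaling, and Mbd3, the methyl-CpG-binding-like subunit, -0.95. These 8 named partners had edgeR adjusted p of 0.000145 or lower.

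Genes reported as targets of these factors in lymphocytes were measured beside them. Of 16 tested, 10 rose and 1 fell with TMM factors (median 1.75), against 30.2% and 34.1% of all genes tested. With panel scaling the median was -0.66, and 5 were higher and 9 lower, against 2.06% and 86.4% of all genes. Il7r belongs to this list and to the panel. The NK and T cell receptor chain gene Il2rb had 1852 ± 53.7 CPM in the labelled Batf-deficient and 185 ± 16.7 CPM in the labelled control libraries (SD, n = 3 each), a log2 fold change of 3.32. Tbx21, encoding T-bet, had 4.50, the cytokine gene Il22 had 3.19 and Id2, the shared ILC factor, had 2.88. These 4 stayed higher with panel scaling, at 0.93, 2.11, 0.79 and 0.48 in that order, and their edgeR adjusted p with TMM factors was 8.96e-10 or lower. The lower gene, named after its value was seen, was Zbtb7b, which encodes ThPOK and is repressed by RUNX proteins in CD8 T cells (-1.86, edgeR adjusted p = 1.85e-06). Cd4, which Runx3 silences in CD8 T cells, did not pass with TMM factors (0.41, edgeR adjusted p = 0.0676), and its groups overlapped.

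The genes most like each member had the closest log2 CPM over the 6 libraries, centred on the gene's mean, by root mean square distance. The 3906 candidates had a log2 CPM averaging 5 or more, were not members, and bore no placeholder name (Gm plus digits, or ending in Rik). Closest to Ets1 was Arhgdib, a GTPase inhibitor of blood cells (distance 0.0378). Bcl11b was nearest to Tecpr1 (0.0409), Ikzf3 to Itm2b (0.0516), and Ets2 to Anxa2, a membrane-binding annexin (0.0537). The profiles share their libraries, and the difference between the groups enters every distance, which is a description of these 6 libraries.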

How the data were processed

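The authors deposited 1 table of raw counts per gene symbol, 1 column per sample, from Smart-seq2 libraries per the labels' protocols. Per the submitters' processing notes, reads were placed on mm10; aligner, counter, annotation and use of strand were not given in these sources. Reads carry no molecular identifiers. Columns were matched to samples by the tag in the sample titles.

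The counts were fitted with edgeR 4.0.16 (R 4.3.3): filterByExpr (minimum count 10, 15261 genes kept), TMM factors, and glmQLFit (robust) with glmQLFTest, two-sided, on the 6 libraries, with a term for group and no other. Benjamini-Hochberg adjustment ran over the whole set of tested genes, and 0.05 was the threshold. SE is the log2 fold change divided by the square root of the F statistic. The fit was also run on simulated counts in which few genes changed, equally many in each direction, which does not test the choice of scaling. Panel scaling used median ratios over 15 ILC and T cell or 12 pan-leukocyte genes, which hold no member. Exon lengths are from GENCODE M21 (the same build). Alternatives used limma 3.58.1 and DESeq2 1.42.0.

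All members are named; from each other list, up to 4 genes past the threshold with the lowest p and a mean log2 CPM of at least 3; then the nearest profiles. Members and lists were chosen with earlier results of these data known, and genes named for a small count or for context lie outside the rule. Labelled Batf-deficient replicates 1 and 2 were alike (mean chi-square 2.36 per gene, other pairs 14.8 to 24.2), above sampling noise, and were kept apart; the series design calls them biological replicates, and whether each came from its own animal is not stated. Replicate numbers are not stated to pair animals across the groups, and the main fit held no term for them. Gene-level counts do not show which promoter or isoform was used. Some genes that the naming rule selects are not reported here.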

Additional observations from a re-analysis of the deposited data

How the results depend on the processing

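The 10 members kept direction and call, 9 higher and 1 lower, with DESeq2, limma voom, no low-count filter, each library left out and labelled Batf-deficient replicates 1 and 2 averaged. Whether replicate numbers pair the animals is not stated. Correlations of deviations between libraries of the same number were 0.00449, 0.0209 and 0.0304, which cannot settle this with 3 libraries per group. With the replicate block 9 members were higher and 1 lower, with 4603 genes higher and 5091 lower in all. Library totals gave 3048 higher genes against 4612, and 0.47 for Cbfb, no longer called (edgeR adjusted p = 0.0618, and 0.00342 with TMM factors). The ILC and T cell panel gave 314 genes higher and 13193 lower, and 1 member higher and 6 lower. It reversed Runx1 (-0.30), Runx2 (-0.36), Runx3 (-0.98), Cbfb (-1.54), Ets1 (-0.081), Ikzf1 (-0.78), Ikzf2 (-0.73) and Bcl11b (-1.43). The pan-leukocyte panel, of 12 genes that include Ptprc and Coro1a, gave 354 genes higher and 12895 lower, and 1 member higher and 6 lower. It reversed Runx1 (-0.17), Runx2 (-0.23), Runx3 (-0.85), Cbfb (-1.40), Ikzf1 (-0.64), Ikzf2 (-0.59) and Bcl11b (-1.30), and left Ets1 at 0.051 with no call. Both panels scale on genes that were themselves higher with TMM factors, which lowers every fold change by construction. Family shares kept their direction under every length tried and every library left out. As shares of counts the differences, labelled Batf-deficient minus labelled control, were 5.29 percentage points for Runx1, -7.26 for Runx3, 55.6 for Ets1 and -7.83 for Ikzf1; with the longest coding transcript, a length chosen after seeing the data, they were 4.05 for Runx1, -5.43 for Runx3 and 60.6 for Ets1, against 2.76, -4.18, 62.5 and -11.1 with the exon union. The lowest count of any member in a library was 107, for Runx2, so depth limits Runx2 the most.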
